A study of Mus musculus with 24 samples.

Results

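Whole lungs of 42-day-old C57BL/6 mice were compared with whole lungs of 14-day-old C57BL/6 mice, the last interval of a postnatal series that also holds days 1, 4 and 7. The compared samples are the 9 of 24 arrays whose labels give an age of 6 weeks (4 arrays, day 42) or 2 weeks (5 arrays, day 14), and every gene on the array was considered. The labels name no treatment and no genetic change, and all groups share the strain. Each array measured total RNA labelled with a single dye, Cy3, so a level here is the log2 of a probe's processed signal relative to the 75th percentile of its own array, and a difference is day 42 minus day 14 on that scale, given as the fitted value ± its standard error. A call is an adjusted p under 0.05 in that fit. Replicates are called biological in the labels, which do not say whether each is a separate animal. If some are not, the p-values measure only the spread between these samples.

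In mice, the lung is born with saccules that are divided into alveoli during the first weeks by septa rich in elastin and myofibroblasts. The capillary bed of these septa is then remodelled and thinned, and growth slows towards adulthood. Over the same weeks red cell production shifts towards the bone marrow, the animals are weaned, and lymphocytes, natural killer cells and macrophages fill the airspaces and the interstitium.

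The labelled tissue was checked against 12 lung markers, and all 12 were well above background, by the scanner software's own mark, on each of the 9 arrays. They include Sftpc, Aqp5 and Ptprc. Day 42 replicate 4 stood apart: the 75th percentile of its signal was 672.0, against 995.5 to 1492.3 on the other arrays compared, and 54.2% of its spots were well above background. The other 4 low arrays lie at days 1 and 4. Values are from a fit on all 24 arrays unless 19 arrays are named, which stands for a second fit without the 5 low ones and leaves 3 arrays at day 42. Day 14 replicate 3 had 79.7% of its spots well above background, against 54.2% to 64.5% on the others. Xist, the RNA that coats the inactive X chromosome of females, was at -1.83 to -1.07 on day 14 replicates 1, 3 and 4 and at -1.85 to -1.40 on day 42 replicates 1, 2 and 3, and was not well above background on the other 3. Ddx3y, a gene of the Y chromosome, was at 0.04 and 0.17 on day 14 replicates 2 and 5 and at -4.67 on day 14 replicate 3, and was not well above background on any day 42 array. Arrays with a signal of these 2 genes were thus unevenly spread over the ages, and the labels give no sex. Neither gene was called with 24 or with 19 arrays.

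Of 15895 genes tested, 587 passed the limma test at an adjusted p under 0.05 with all 24 arrays (3.69%), 347 higher at day 42 (2.18%) and 240 lower (1.51%). With 19 arrays 2154 passed (13.6%), 1070 higher (6.73%) and 1084 lower (6.82%). The counts of every list below are to be read against these shares. Of the 587 genes, 575 passed again in the same direction and none in the opposite one. Fitted on the 9 arrays of both ages alone, 206 genes passed, 189 of them among the 587, and of the 115 called genes named here 46 passed. Named genes that did not pass there are not all marked below. An unadjusted p under 0.05, which is given below for lists without a call, was reached by 8.97% of all genes as higher and by 5.11% as lower. The median difference over all genes was 0.07 with 24 arrays and -0.03 with 19. Within slides, each a glass slide of 8 arrays, it was -0.05 on slide 1, -0.01 on slide 2 and 0.48 on slide 3, the slide of the low day 42 array. Of the 587 genes, 581 had the same sign on all 3 slides. The genes were picked by the test on these same arrays, so such agreement was favoured in advance and is not separate support. At least 2-fold differences were found for 215 of the 347 higher genes and 174 of the 240 lower ones. Centring each array on its median in place of its 75th percentile moved the median of all genes to 0.31 and the calls to 390 higher (78.9% of the calls) and 104 lower, against 59.1% higher on the 75th percentile scale.

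**Figure D1:**
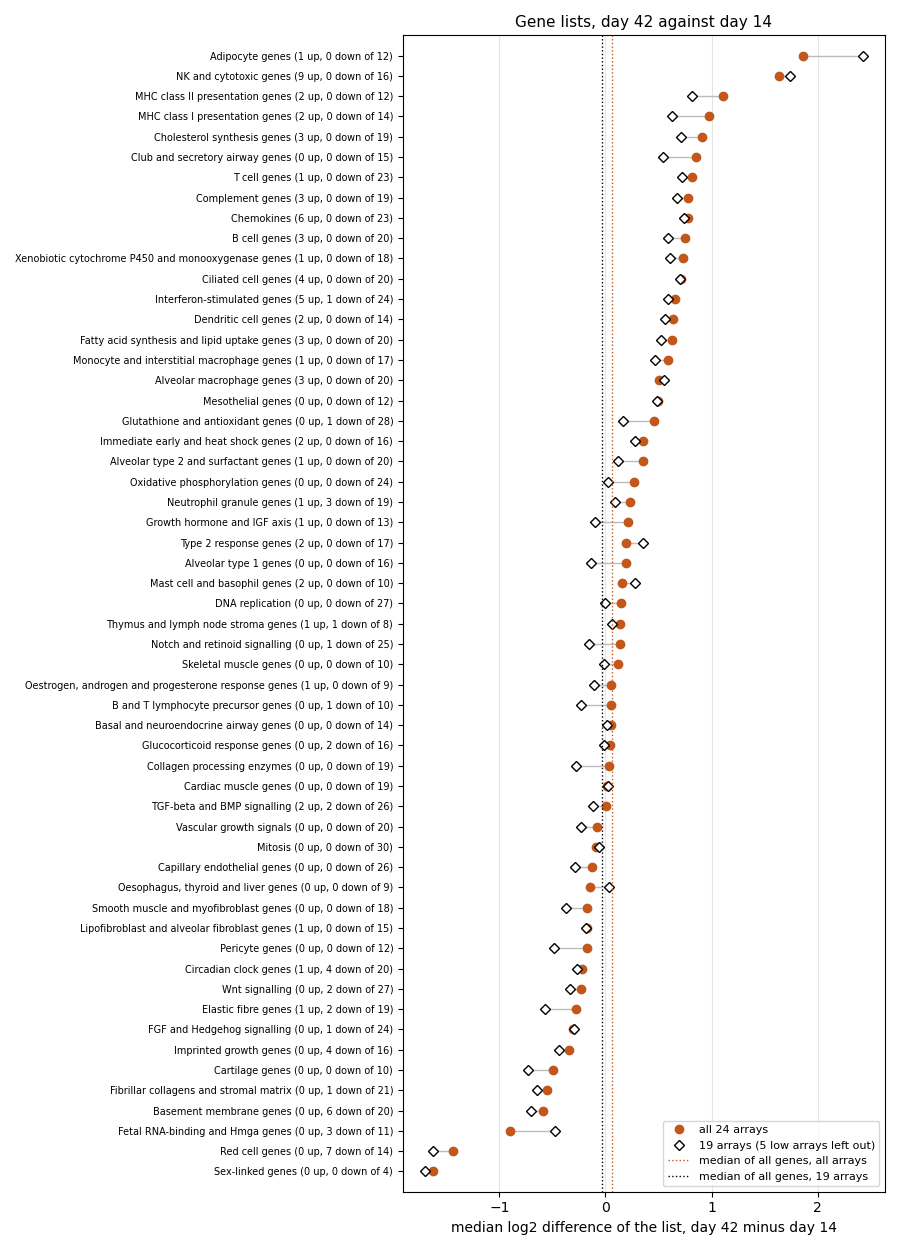
Median log2 difference (day 42 minus day 14, x axis) of each of the 56 gene lists, with filled points for the 24-array fit and open diamonds for the 19-array fit. Dotted lines mark the median of all genes in each fit. The label of each row gives the members past the test with all arrays. In the 24-array fit, adipocyte, natural killer and antigen presentation genes lie farthest to the right, and sex-linked, red cell and fetal RNA-binding genes farthest to the left.

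Transcripts of red cells and their precursors fell, several of them steeply. Of 14 red cell genes tested, 7 fell and none rose with 24 arrays, where 1.51% of all genes fell, and 10 fell with 19 arrays. The list's median difference was -1.44 with 24 arrays and -1.62 with 19, or -1.03 when the 4 members that were not well above background at day 42 are set at their bounds. Its medians within slides 1, 2 and 3 were -1.57, -1.61 and -1.31. The count of falls stayed between 7 and 8 when any 1 of the 9 arrays was left out.

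Slc4a1, the band 3 anion exchanger of the red cell membrane, had levels of 3.35, 3.15, 2.89, 3.41 and 2.13 at day 14 and -1.47, -0.78, -1.97 and -0.35 at day 42, in order of replicate. Every day 42 array lay below every day 14 array, and the difference of -4.13 ± 0.37, adjusted p = 4.9e-07, corresponds to 17.5-fold less signal. Kel and Rhd, which encode the Kell and rhesus D blood group proteins and are not in the list, were well above background on all 5 day 14 arrays and on none at day 42, and were at least 7.55-fold and 7.58-fold lower (adjusted p = 7.73e-08 and 3.09e-06). Here and below, such a bound sets the mean of the measured age against the lowest signal that counts as well above background on each array of the other age. Epb42, a list member that encodes a protein of the membrane skeleton, was at least 5.27-fold lower at day 42 (adjusted p = 4.13e-07).

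Haem and globin genes followed with smaller differences. Alas2, the first enzyme of haem synthesis in red cell precursors, had levels of 5.84, 5.88, 5.87, 5.86 and 5.33 at day 14 and 3.35, 3.53, 2.51 and 4.2 at day 42 (-2.36 ± 0.35, adjusted p = 0.000325). Hbb-b2, an adult beta globin, had levels of 7.80, 7.78, 7.87, 7.75 and 7.39 at day 14 and 5.83, 6.09, 5.21 and 6.54 at day 42 (-1.80 ± 0.27, adjusted p = 0.000291). No day 42 array reached the lowest day 14 array for either gene. Car2, a carbonic anhydrase that red cells share with other cell types, fell too (-1.08 ± 0.15, adjusted p = 0.000211), but did not pass with arrays centred on the median (adjusted p = 0.0542). The alpha globins did not pass with 24 arrays: Hba-a1 differed by -0.58 ± 0.29, adjusted p = 0.397, and Hba-a2 by 0.11 ± 0.26, adjusted p = 0.839. With 19 arrays Hba-a1 fell (-0.80 ± 0.15, adjusted p = 0.00261) and Hba-a2 did not pass (-0.08 ± 0.12, adjusted p = 0.767). Probes for the near-identical globin copies may share signal, so these values are uncertain as to the copy. Alas2, Hbb-b2 and Car2 were chosen for mention after their values were seen.

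A gene outside the list with a known place in red cell development also fell. Trim10, a gene of terminal red cell maturation, had levels of 0.28, 0.16, 0.01, 0.49 and -1.66 at day 14 and -3.92, -3.20, -4.29 and -2.87 at day 42 (-3.42 ± 0.40, adjusted p = 1.43e-05). At days 1, 4 and 7 the means of Slc4a1 were 2.84, 3.04 and 2.28 and those of Trim10 were -0.39, -0.46 and -1.09, so the day 42 levels of both lay below the means of all 4 earlier ages. In whole tissue, fewer cells of a type and less RNA per cell cannot be told apart, and this holds for every list here.

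**Figure D2:**
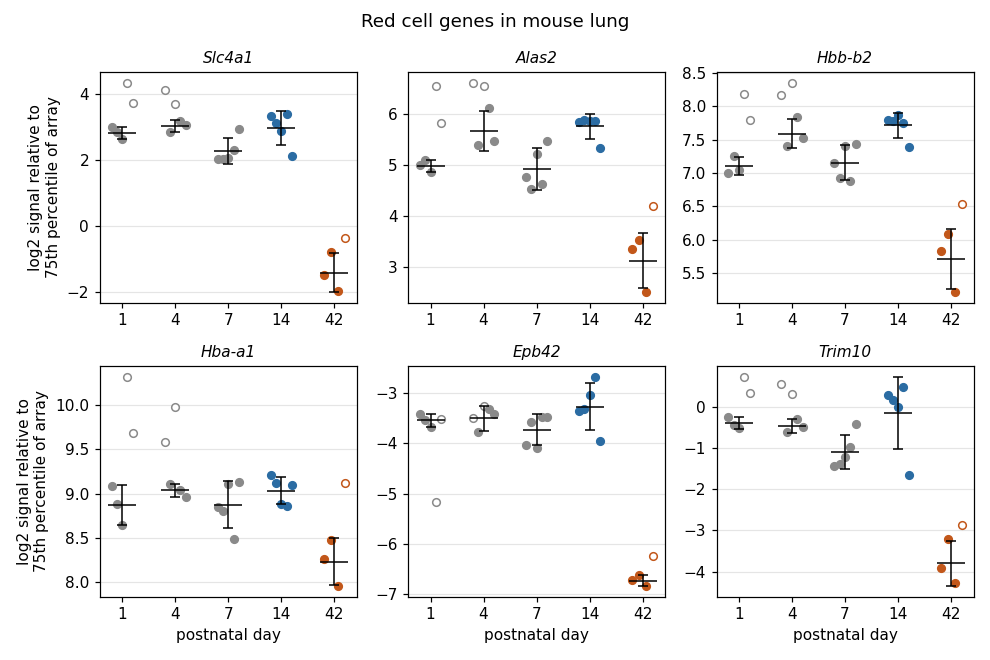
Levels of 6 red cell genes (y axis, log2 signal relative to the array's 75th percentile) on every array by postnatal day (x axis). Open circles are the 5 low arrays, and bars give the mean and SD of the others. Slc4a1, Alas2, Hbb-b2, Epb42 and Trim10 lie lower on all 4 day 42 arrays than on any day 14 array, whereas Hba-a1 overlaps through day 42 replicate 4. Epb42 was not well above background on any day 42 array.

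Genes of the elastic fibre were fewer in their calls but held a large fall. Of 19 tested, 2 fell (Eln and Lox) and 1 rose (Efemp1), with a median difference of -0.28, and with 19 arrays 8 fell and 1 rose, with a median of -0.56. Eln, the gene of tropoelastin, had levels of 4.71, 4.73, 5.32, 4.61 and 6.10 at day 14 and 2.23, 2.06, 2.31 and 3.47 at day 42. Its difference was -2.58 ± 0.36, adjusted p = 0.000124, a 5.97-fold fall, and the 3 within-slide values were -2.49, -2.48 and -2.24. Its means at days 1, 4 and 7 were 4.21, 4.97 and 5.33. Lox, the oxidase that cross-links elastin and collagen, had levels of -0.18, -0.17, 0.59, -0.21 and -0.52 at day 14 and -1.04, -1.25, -1.25 and -2.44 at day 42 (-1.40 ± 0.35, adjusted p = 0.024), and its call was lost without day 42 replicate 4 (adjusted p = 0.106) and without day 14 replicate 3 (adjusted p = 0.0631). Efemp1, encoding fibulin-3, had levels of 3.01, 2.87, 3.25, 2.89 and 2.08 at day 14 and 3.67, 3.69, 3.75 and 3.69 at day 42 (0.88 ± 0.17, adjusted p = 0.00445). Fbn1, encoding the microfibril protein fibrillin-1, passed with 19 arrays (-0.76 ± 0.16, adjusted p = 0.00616) and not with 24 (-0.56 ± 0.23, adjusted p = 0.242).

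Among 21 fibrillar collagens and stromal matrix genes 1 fell, Col5a2, and the median difference was -0.55. Col5a2, a collagen V chain that nucleates collagen fibrils, had levels of 1.55, 1.63, 1.24, 1.71 and 2.70 at day 14 and 0.56, 0.68, 0.38 and -0.39 at day 42 (-1.46 ± 0.27, adjusted p = 0.00241). With 19 arrays 9 fell and 1 rose, with a median of -0.64. Both chains of collagen I passed in the 19-array fit alone. Col1a1 had levels of 6.47, 6.41, 6.17, 6.29 and 6.90 at day 14 and 5.80, 5.72, 5.66 and 6.78 at day 42, so that only day 42 replicate 4 reached the day 14 range, and it differed by -0.46, adjusted p = 0.532 with 24 arrays and by -0.72, adjusted p = 0.00207 with 19. Col1a2 differed by -0.75, adjusted p = 0.148 and by -0.96, adjusted p = 0.00139. Adamts17, a secreted metalloprotease linked to fibrillin matrix, had, after Slc4a1, Trim10 and Stfa1, the largest fall among called genes well above background on all 9 arrays, with levels of 3.77, 3.73, 3.22, 3.73 and 4.50 at day 14 and 0.61, 0.36, 0.53 and 1.48 at day 42 (-3.05 ± 0.29, adjusted p = 8.6e-07). Col10a1, encoding the collagen X chain of hypertrophic cartilage, was well above background on all 5 day 14 arrays and on 1 of 4 at day 42, and had levels of -2.17, -2.27, -2.71, -2.75 and -2.21 at day 14 and -3.94, -7.34, -5.63 and -6.99 at day 42 (adjusted p = 6.6e-05). Of 19 collagen processing enzymes none passed with 24 arrays (2 higher and 2 lower at an unadjusted p under 0.05), and 1 rose and 6 fell with 19.

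Basement membrane genes, which encode the sheet that underlies epithelium and endothelium, fell in part. Of 20 tested, 6 fell and none rose with 24 arrays, and 14 fell with 19. Median differences were -0.59 and -0.70. Nid2 and Nid1, the nidogens that link laminin to collagen IV, differed by -1.03 ± 0.22, adjusted p = 0.00904, and by -0.83 ± 0.16, adjusted p = 0.00367. Nid1 had levels of 4.35, 4.54, 4.08, 4.49 and 4.69 at day 14 and 3.68, 3.43, 3.53 and 3.75 at day 42. Lamc1, the gamma chain shared by most laminins, had levels of 4.80, 4.90, 4.94, 4.87 and 5.26 at day 14 and 3.75, 3.75, 3.97 and 4.71 at day 42 (-0.91 ± 0.22, adjusted p = 0.0202). Col4a4 (-0.83 ± 0.15, adjusted p = 0.0025) and Col4a5 (-0.79 ± 0.16, adjusted p = 0.00546) encode collagen IV chains. Lama2 encodes a laminin alpha chain (-0.66 ± 0.16, adjusted p = 0.024), and it and Col4a5 were named after their values were seen. Lama2 lost its call in 5 of the 9 fits that each left out 1 array (adjusted p up to 0.0966), and Lamc1 in 4 of them (up to 0.0812). The 2 most widespread collagen IV chains passed only with 19 arrays: Col4a1 had levels of 4.89, 4.88, 4.95, 4.77 and 5.20 at day 14 and 3.68, 3.58, 3.80 and 5.12 at day 42 (-0.89, adjusted p = 0.118 with 24 arrays and -1.25, adjusted p = 2.25e-05 with 19). Col4a2 differed by -0.76, adjusted p = 0.274 and by -1.12, adjusted p = 7.82e-05. The list's medians within slides were -0.70, -0.66 and 0.10, and none of the 6 calls held with arrays centred on the median, where the list's median was -0.35.

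**Figure D3:**
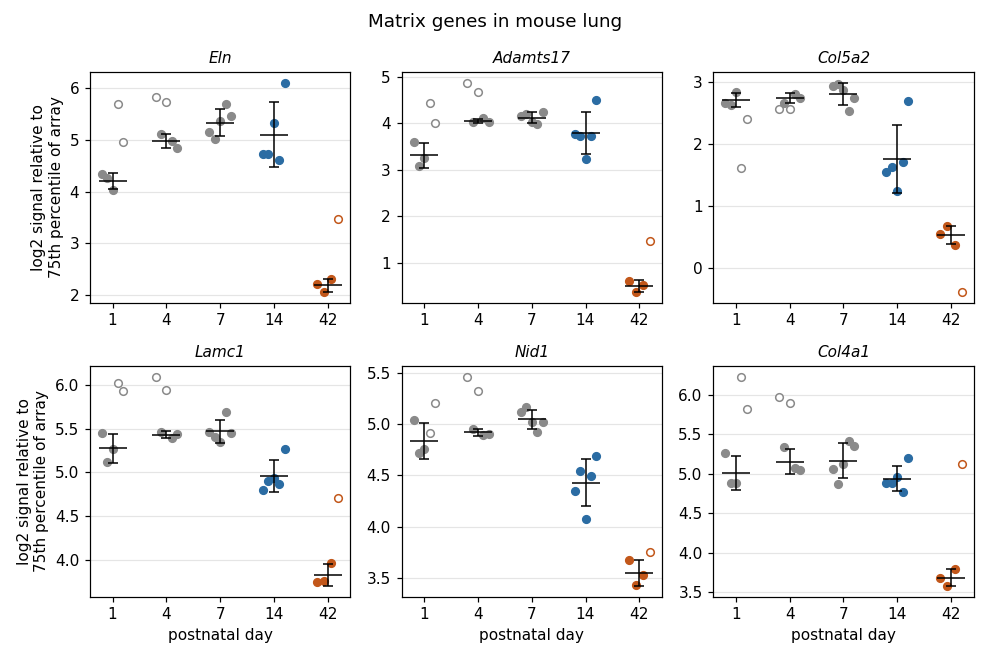
Levels of 6 matrix genes (y axis, log2 signal relative to the array's 75th percentile) on every array by postnatal day (x axis), with open circles for low arrays and bars for the mean and SD of the others. Eln, Adamts17, Lamc1 and Nid1 are lower on all 4 day 42 arrays than on any day 14 array, and Col4a1 overlaps.

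Signals that pattern the lung changed in few members. Of 24 FGF and Hedgehog genes 1 fell. Of 27 Wnt genes 2 fell. Rspo2, a secreted amplifier of Wnt signalling, had levels of -2.42, -2.56, -2.46, -2.66 and -0.79 at day 14 and -3.04, -4.13, -4.55 and -5.49 at day 42 (-2.13 ± 0.39, adjusted p = 0.00242), with day 14 replicate 5 well above the other day 14 arrays, and means of -0.28, 0.07 and 0.02 at days 1, 4 and 7. On day 42 replicate 4 the level of Rspo2 lay below the lowest signal that counts as well above background. Wif1, a secreted Wnt inhibitor, differed by -1.12 ± 0.28, adjusted p = 0.0249, and lost its call in 4 of the 9 fits (up to 0.0984). Of 26 TGF-beta and BMP genes 2 rose and 2 fell. The ligand gene Bmp2 fell (-0.70 ± 0.15, adjusted p = 0.00971) and the ligand gene Bmp7 rose (1.13 ± 0.31, adjusted p = 0.039). Among the secreted BMP antagonists, Nog fell (-1.20 ± 0.31, adjusted p = 0.0305) and Chrdl1 rose (1.86 ± 0.49, adjusted p = 0.0321). Chrdl1 had levels of -2.47, -2.49, -2.42, -2.09 and -4.76 at day 14 and -0.90, -0.72, -0.92 and -1.39 at day 42, against means of -6.72, -6.36 and -6.51 at days 1, 4 and 7. These early means of Chrdl1 lay below the lowest signal that counts as well above background at those ages. Bmp7, Nog and Chrdl1 each lost their calls in several of the 9 fits (7, 7 and 4, with adjusted p up to 0.159, 0.124 and 0.0936), and Bmp2 in none. Bmp2 did not pass with arrays centred on the median (adjusted p = 0.35) or in the fit of the 9 arrays alone (0.14). Of 25 Notch and retinoid genes 1 fell, Crabp1, a retinoic acid binding protein (-1.96 ± 0.49, adjusted p = 0.0245), whose call was lost without day 42 replicate 2 or 3 or day 14 replicate 5 (up to 0.0936). Like Bmp2, the genes Wif1, Nog and Crabp1 did not pass with arrays centred on the median. Rspo2, Wif1, Bmp7, Nog, Chrdl1 and Crabp1 did not pass in the fit of the 9 arrays alone either. With 19 arrays these lists gave 0 higher and 5 lower (FGF and Hedgehog), 0 and 6 (Wnt), 3 and 4 (TGF-beta and BMP) and 1 and 4 (Notch and retinoid).

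Imprinted growth genes and genes of the fetal programme were mostly lower. Of 16 imprinted genes tested 4 fell and none rose (median -0.34), and with 19 arrays 6 fell and 1 rose. Mest, which encodes a membrane hydrolase expressed from the paternal copy, had levels of 1.94, 1.93, 1.5, 1.67 and 3.78 at day 14 and 0.78, 0.37, 0.68 and 1.09 at day 42 (-1.43 ± 0.30, adjusted p = 0.00824) and means of 5.50, 5.00 and 4.70 at days 1, 4 and 7. Grb10, an adaptor that restrains insulin and IGF receptor signalling, fell (-0.96 ± 0.23, adjusted p = 0.0196), as did Peg3 (-2.03 ± 0.52, adjusted p = 0.0294) and the non-coding RNA Meg3 (-1.65 ± 0.46, adjusted p = 0.0479). Peg3, Grb10 and Meg3 lost their calls in 5, 3 and 8 of the 9 fits (adjusted p up to 0.135, 0.0694 and 0.216), and without day 42 replicate 4 the difference of Peg3 was -1.39. Igf2, the fetal growth factor, was well above background on 2 day 14 arrays and 1 day 42 array and differed by -0.12, adjusted p = 0.858. Of 11 fetal RNA-binding and Hmga genes 3 fell with 24 arrays, the same count in each of the 9 fits, and 5 with 19. Igf2bp3, a fetal RNA-binding protein, was well above background on all 5 day 14 arrays and on 1 of 4 at day 42, and had levels of -3.76, -4.13, -3.48, -3.62 and -3.00 at day 14 and -5.32, -6.42, -5.69 and -7.06 at day 42 (adjusted p = 5.53e-05). Nrep (-1.58 ± 0.24, adjusted p = 0.000438) encodes a small protein of growing and injured tissue, and Sox4 (-1.02 ± 0.23, adjusted p = 0.011) a transcription factor of progenitor cells. In the growth hormone and IGF axis, where 1 rose and 1 fell with 19 arrays, 1 of 13 genes rose with 24, Igfbp3, the main IGF carrier in serum, with levels of 0.49, 0.24, 0.15, -0.20 and -1.53 at day 14 and 0.94, 0.96, 1.05 and 1.80 at day 42 (1.36 ± 0.30, adjusted p = 0.0107). Igf1 had levels of 0.08, 0.03, 0.01, 0.37 and 1.88 at day 14 and 1.48, 0.42, 0.95 and -3.1 at day 42 and did not pass (-0.54, adjusted p = 0.776). With arrays centred on the median, Mest, Grb10, Meg3 and Sox4 did not pass. In the fit of the 9 arrays alone, Mest, Grb10, Peg3, Meg3, Sox4 and Igfbp3 did not pass.

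Natural killer and cytotoxic lymphocyte genes rose together. Of 16 tested, 9 rose and none fell with 24 arrays, 13 rose with 19, and between 7 and 10 rose when 1 array was left out. The list's median difference was 1.64 and 1.74, and its medians within slides were 1.43, 1.60 and 2.49. Gzma and Gzmb encode granzymes, the proteases that kill target cells. Gzma had levels of 1.94, 0.82, 2.04, 1.98 and 1.06 at day 14 and 3.60, 3.97, 4.36 and 4.76 at day 42 (2.61 ± 0.41, adjusted p = 0.000584), and Gzmb of -3.22, -3.09, -2.94, -3.17 and -4.04 at day 14 and -1.43, -1.04, -0.49 and 0.62 at day 42 (2.71 ± 0.35, adjusted p = 6.6e-05). Neither gene overlapped between the ages, as was the case for 11.5% of all genes tested. Klra8, the activating receptor Ly49H of C57BL/6 natural killer cells, had levels of -2.06, -2.21, -2.08, -1.69 and -4.22 at day 14 and 0.54, 0.68, 1.16 and -1.73 at day 42 (2.61 ± 0.57, adjusted p = 0.0106), with day 42 replicate 4 at the level of the day 14 arrays and a difference of 3.24 without it. Its means at days 1, 4 and 7 were -7.79, -7.19 and -6.27, below the lowest signal that counts as well above background at those ages. Probes for the Klra family may share signal. Tbx21 and Eomes encode the transcription factors that direct cytotoxic lymphocytes. Tbx21 had levels of -1.68, -1.11, -1.38, -1.5 and -2.47 at day 14 and -0.04, 0.20, 0.42 and 2.13 at day 42 (2.31 ± 0.44, adjusted p = 0.00382), and Eomes rose as well (1.52 ± 0.34, adjusted p = 0.011). Klrb1c, the NK1.1 receptor, differed by 2.03 ± 0.40, adjusted p = 0.00445. Eomes and Klrb1c were named after their values were seen. Ccl5, a chemokine of cytotoxic and memory T cells, had levels of 2.11, 2.75, 2.28, 2.49 and 1.07 at day 14 and 3.67, 3.98, 4.38 and 6.10 at day 42 (2.39 ± 0.45, adjusted p = 0.00298).

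T and B lymphocyte genes moved the same way in fewer members. Of 23 T cell genes 1 rose with 24 arrays and 11 with 19, with medians of 0.82 and 0.72. Cd3e, a chain of the receptor complex, had levels of 0.07, 0.28, 0.33, 0.33 and -0.24 at day 14 and 0.72, 0.46, 0.51 and 2.19 at day 42 and did not pass in either fit (0.82, adjusted p = 0.313, and 0.41, adjusted p = 0.079), although the ages did not overlap. Of 20 B cell genes 3 rose with 24 arrays and 3 with 19. Jchain, which joins the units of secreted IgM and dimeric IgA in plasma cells, had the largest rise among called genes well above background on all 9 arrays. Its levels were -5.16, -3.59, -3.89, -4.03 and -4.49 at day 14 and 4.40, -1.13, -0.65 and -2.08 at day 42, and its difference 4.37 ± 0.81, adjusted p = 0.00267. Day 42 replicate 1 was far above the other 3, which were themselves above all day 14 arrays. Without that array the difference was 2.94 (adjusted p = 0.000611), below that of Mfsd2a (3.67), and in the fit of the 9 arrays alone Jchain did not pass (adjusted p = 0.0883). Day 42 replicate 1 also had the highest day 42 mean level of the B cell list (1.02, against -0.35 to 0.30), of the thymus and lymph node stroma list (-1.32, against -2.42 to -1.93) and of the adipocyte list given below. The part of such tissue in the B cell results was not tested. Jchain is a member of the B cell list, so its level on day 42 replicate 1 itself raised that list's mean. Fcer2a, encoding the low-affinity IgE receptor CD23 of B cells, rose (1.19 ± 0.24, adjusted p = 0.00614), as did Tnfrsf17, the plasma cell receptor BCMA (2.22 ± 0.59, adjusted p = 0.0352), which did not pass with 19 arrays (adjusted p = 0.054) and lost its call in 5 of the 9 fits (up to 0.152). Among 10 genes of lymphocyte precursors 1 fell, Rag1, which cuts antigen receptor genes in developing lymphocytes. Rag1 had levels of -4.29, -5.88, -0.85, -5.29 and -4.24 at day 14 and -6.63, -7.88, -8.01 and -7.15 at day 42, was not well above background at day 42, and was at least 2.94-fold lower (adjusted p = 0.0183), or at least 1.67-fold without day 14 replicate 3. Its call was lost without day 42 replicate 2 or 3 (up to 0.061). Day 14 replicate 3 stood above the other day 14 arrays for Rag1, and it also had the highest mean level of the precursor list (-0.38, against -1.98 to -1.70 on the other day 14 arrays) and of the thymus and lymph node stroma list (-0.94, against -2.06 to -1.87). The part of such tissue in the Rag1 result was not tested. Rag1 is a member of both lists, so its level on day 14 replicate 3 itself raised both means.

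Antigen presentation genes lay mostly higher at day 42, with few calls in the 24-array fit. Of 14 MHC class I presentation genes tested 12 had a difference above 0, as had all 12 MHC class II presentation genes. Each of these genes kept its sign on all 3 slides, but the slides hold the same arrays as the fit and are not separate support. Of the class I genes 2 rose with 24 arrays and 11 with 19, with medians of 0.98 and 0.63 and slide medians of 0.47, 0.47 and 2.34. Nlrc5, the transcriptional activator of class I genes, had levels of 0.47, 0.61, 0.17, 0.86 and -0.46 at day 14 and 1.81, 1.75, 1.79 and 2.33 at day 42 (1.59 ± 0.32, adjusted p = 0.00582). B2m, the light chain of class I molecules, had levels of 4.89, 4.88, 5.00, 4.92 and 4.10 at day 14 and 5.47, 5.37, 5.43 and 6.40 at day 42 (0.91 ± 0.24, adjusted p = 0.0325), and lost its call in 5 of the 9 fits (up to 0.147). H2-K1, a classical class I heavy chain, had levels of 6.52, 6.63, 6.30, 6.40 and 5.68 at day 14 and 7.26, 7.28, 7.20 and 8.57 at day 42 (1.27, adjusted p = 0.081 with 24 arrays, and 0.94, adjusted p = 0.00572 with 19). H2-Q8, a nonclassical class I gene that is not in the list, had levels of 0.25, 0.65, 0.14, 0.44 and -0.94 at day 14 and 2.29, 2.07, 1.89 and 3.91 at day 42 (2.43 ± 0.52, adjusted p = 0.00904). Class I genes are near-identical in places and their probes may share signal. Of the class II genes 2 rose with 24 arrays and 9 with 19, with medians of 1.11 and 0.82. Ctss, a protease of the class II pathway, differed by 0.70 ± 0.18, adjusted p = 0.0283, and H2-Ob, a chain of the class II editing inhibitor, by 1.06 ± 0.30, adjusted p = 0.0499. They lost their calls in 5 and 7 of the 9 fits (up to 0.081 and 0.159). H2-Aa, a chain of the main class II molecule, had levels of 2.28, 2.28, 2.16, 2.35 and 1.96 at day 14 and 3.07, 3.15, 2.95 and 4.45 at day 42, so that the ages did not overlap, and passed with 19 arrays only (1.20, adjusted p = 0.0948, and 0.85, adjusted p = 0.00575). Day 42 replicate 4, the low array, was the highest for H2-K1, H2-Q8, H2-Aa and B2m.

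Interferon-stimulated genes were mixed. Of 24 tested, 5 rose and 1 fell with 24 arrays, and 8 rose and 1 fell with 19, with medians of 0.66 and 0.59. Without day 42 replicate 4, 3 rose and 1 fell. Promoters were available from RefSeq (GRCm38.p6) for 16 of the 24 members, as windows of 300 bases around the start of each gene. The core of the interferon response element, 2 GAAA blocks with any 2 bases between them, was searched on both strands, and 11 of the 16 held it (68.8%), against 3.4% of all 32851 promoters and 3.7% of tested genes with a promoter. These are 3 called members that hold it, shown 5′ to 3′ on the gene's strand with matches in capitals. A match on the opposite strand has TTTC blocks, and 2 overlapping matches in Oas1a form 1 run.
Rsad2 (chr12:26456403-26456702, minus strand): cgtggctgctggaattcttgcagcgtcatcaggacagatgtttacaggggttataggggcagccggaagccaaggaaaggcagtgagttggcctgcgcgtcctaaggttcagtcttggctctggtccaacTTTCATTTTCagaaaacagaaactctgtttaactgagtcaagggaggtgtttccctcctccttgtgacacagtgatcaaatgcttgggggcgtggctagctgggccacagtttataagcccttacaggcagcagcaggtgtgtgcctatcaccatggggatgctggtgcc
Oas1a (chr5:120907476-120907775, minus strand): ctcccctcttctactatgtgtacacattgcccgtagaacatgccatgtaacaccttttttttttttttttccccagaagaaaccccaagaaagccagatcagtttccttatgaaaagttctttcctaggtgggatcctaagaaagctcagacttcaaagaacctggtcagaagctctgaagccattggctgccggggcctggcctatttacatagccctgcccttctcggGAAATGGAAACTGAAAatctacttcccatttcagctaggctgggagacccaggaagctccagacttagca
Igtp (chr11:58199306-58199605, plus strand): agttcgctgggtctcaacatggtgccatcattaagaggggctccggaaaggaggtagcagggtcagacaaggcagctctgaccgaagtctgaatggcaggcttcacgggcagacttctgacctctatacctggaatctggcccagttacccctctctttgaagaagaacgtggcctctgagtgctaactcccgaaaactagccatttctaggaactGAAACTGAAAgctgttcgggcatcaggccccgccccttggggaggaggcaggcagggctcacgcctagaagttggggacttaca

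The members above moved in opposite directions. Rsad2, encoding the antiviral enzyme viperin, had levels of 2.56, 2.32, 2.42, 2.59 and 1.37 at day 14 and -0.11, 0.32, -0.44 and -0.71 at day 42, a 5.61-fold fall (-2.49 ± 0.27, adjusted p = 6.66e-06) with within-slide values of -2.68, -2.51 and -2.61. Oas1a, an oligoadenylate synthetase that senses double-stranded RNA, had levels of 1.82, 1.58, 1.52, 1.84 and 1.16 at day 14 and 2.70, 3.04, 2.94 and 4.31 at day 42 (1.67 ± 0.39, adjusted p = 0.0152), and lost its call without day 42 replicate 4 (adjusted p = 0.0719). Oas2, of the same family, had levels of 1.03, 0.39, 0.70, 1.1 and -0.08 at day 14 and 2.12, 2.39, 2.27 and 2.29 at day 42 (1.64 ± 0.28, adjusted p = 0.00146). Igtp, a GTPase of the defence against intracellular parasites that was named after its values were seen, rose (1.07 ± 0.24, adjusted p = 0.011). Ifi27l2a, a mitochondrial interferon-induced protein, had levels of 3.24, 2.86, 3.50, 3.47 and 1.91 at day 14 and 5.80, 5.38, 5.00 and 6.27 at day 42 (2.62 ± 0.40, adjusted p = 0.000438). The fifth that rose, Cxcl10, is a chemokine and is given below. The first 2 list members, Isg15 and Ifit1, also classical interferon targets, did not pass in either fit (with 24 arrays 0.19, adjusted p = 0.8, and -0.02, adjusted p = 0.983).

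**Figure D4:**
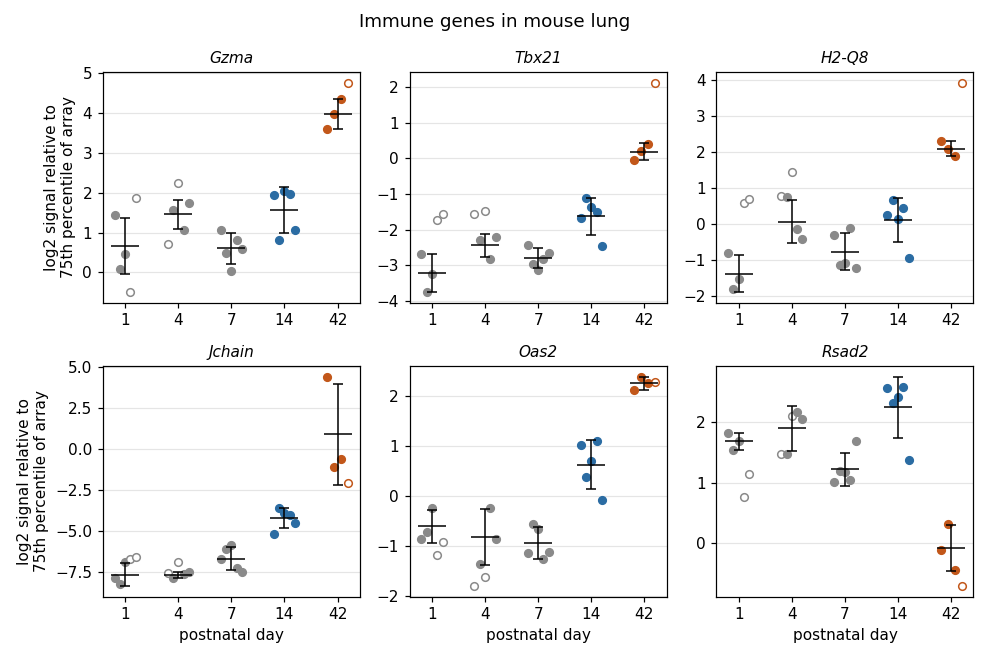
Levels of 6 immune genes (y axis, log2 signal relative to the array's 75th percentile) on every array by postnatal day (x axis), with open circles for low arrays and bars for the mean and SD of the others. Gzma, Tbx21, H2-Q8, Jchain and Oas2 are higher on all 4 day 42 arrays than on any day 14 array, and Rsad2 is lower.

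Chemokine genes rose in 6 of 23 cases and fell in none with 24 arrays, and 7 rose with 19. Besides Ccl5 above, Ccl3 and Ccl4, inflammatory chemokines made by activated leukocytes, differed by 1.27 ± 0.25, adjusted p = 0.00424, and by 2.03 ± 0.29, adjusted p = 0.000189. Ccl4 had levels of -2.60, -2.61, -2.87, -2.53 and -2.80 at day 14 and -0.74, -0.72, -1.16 and 0.01 at day 42. Ccl8, a monocyte and eosinophil attractant, had levels of -4.13, -3.86, -3.65, -4.17 and -2.29 at day 14 and -0.07, -0.91, -1.79 and -1.79 at day 42 (2.48 ± 0.40, adjusted p = 0.000702). Ccl19, which guides T cells and dendritic cells through CCR7, rose by a difference of 0.79 ± 0.21, adjusted p = 0.0362, and Cxcl10, which attracts CXCR3-bearing lymphocytes, by 1.52 ± 0.39, adjusted p = 0.0293. Ccl19 and Cxcl10 lost their calls in 6 and 7 of the 9 fits (up to 0.156 and 0.109), and Cxcl10 did not pass with 19 arrays (adjusted p = 0.0534). Cxcl3, a neutrophil attractant, was not well above background at day 14, was so on 3 of 4 arrays at day 42, and was at least 2.75-fold higher (adjusted p = 0.000765). It did not pass with normexp background correction (adjusted p = 0.311). Of 19 complement genes 3 rose and none fell with 24 arrays, and 8 rose with 19. C3, the central component, had levels of 5.97, 5.61, 6.58, 5.82 and 5.46 at day 14 and 7.54, 6.98, 6.62 and 7.67 at day 42 (1.32 ± 0.29, adjusted p = 0.0101). C4b had levels of 4.18, 3.72, 5.39, 4.31 and 3.29 at day 14 and 5.80, 5.61, 5.33 and 6.21 at day 42 (1.56 ± 0.34, adjusted p = 0.0107), with day 14 replicate 3 within the day 42 range. Cfb, factor B of the alternative pathway, rose (1.39 ± 0.39, adjusted p = 0.0465) and lost its call in 7 of the 9 fits (up to 0.161).

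Myeloid genes rose in some members. Of 20 alveolar macrophage genes 3 rose with 24 arrays and 7 with 19, and none fell in either fit. Siglecf, a sialic acid receptor that marks these cells and eosinophils, differed by 0.78 ± 0.21, adjusted p = 0.0394, and Csf2ra, a chain of the GM-CSF receptor on which the cells depend, by 0.59 ± 0.15, adjusted p = 0.0276. Pparg, the lipid-sensing factor that GM-CSF induces in them, is also expressed in adipocytes and lipofibroblasts, and had levels of 0.49, 0.48, 0.41, 0.45 and 0.12 at day 14 and 1.64, 0.95, 0.91 and 0.99 at day 42 (0.73 ± 0.18, adjusted p = 0.0195). Siglecf, Csf2ra and Pparg lost their calls in 7, 4 and 2 of the 9 fits (up to 0.117, 0.0854 and 0.0929). Of 17 monocyte and interstitial macrophage genes 1 rose with 24 arrays, Folr2, a folate receptor of tissue-resident macrophages, with levels of -2.23, -2.79, -1.43, -2.56 and -2.21 at day 14 and 1.35, -0.60, -1.08 and 0.09 at day 42 (2.18 ± 0.44, adjusted p = 0.00599), and 9 rose with 19. Of 14 dendritic cell genes 2 rose with 24 arrays and 5 with 19: Flt3, the receptor for the dendritic cell growth factor, had levels of -1.96, -2.01, -1.56, -1.80 and -2.43 at day 14 and -1.18, -0.92, -1.03 and -0.84 at day 42 (0.96 ± 0.19, adjusted p = 0.00514), and Clec10a, a galactose lectin, -0.09, 0.06, -0.03, -0.06 and 0.03 at day 14 and 2.32, 0.85, 0.58 and 1.61 at day 42 (1.36 ± 0.33, adjusted p = 0.0219). Clec10a lost its call without day 42 replicate 1 or 4 (up to 0.101), and Flt3 did not pass when all probes of a gene were averaged (adjusted p = 0.678). Cd209f, a lectin related to DC-SIGN, had levels of -2.12, -2.70, -2.61, -2.63 and -2.34 at day 14 and 1.91, -0.67, -1.1 and -0.46 at day 42 (2.40 ± 0.46, adjusted p = 0.00382), again highest on day 42 replicate 1. Without that array the difference of Cd209f was 1.73 (adjusted p = 0.0108). In the fit of the 9 arrays alone Cd209f did not pass (adjusted p = 0.0551), nor did Siglecf, Csf2ra, Pparg, Folr2, Flt3 or Clec10a.

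Granulocyte genes split. Of 19 neutrophil granule genes, 3 stefins fell and Mmp9 rose with 24 arrays, and 5 fell and 1 rose with 19. Stfa1, a cysteine protease inhibitor of neutrophils, had levels of -0.18, 0.00, -0.47, 0.10 and 3.1 at day 14 and -1.41, -2.63, -3.25 and -2.89 at day 42 (-3.05 ± 0.49, adjusted p = 0.000696), and Stfa2 (-1.84 ± 0.36, adjusted p = 0.00448) and Stfa3 (-3.02 ± 0.49, adjusted p = 0.000787) fell with it. Day 14 replicate 5 stood above the other day 14 arrays for all 3 stefins, and its Stfa1 level lay near the means of 3.22, 2.79 and 2.83 at days 1, 4 and 7. Without that array the difference of Stfa1 was -2.41 (adjusted p = 2.43e-05) and that of Stfa3 -2.40 (adjusted p = 9.56e-05). In the fit of the 9 arrays alone Stfa1, Stfa2 and Stfa3 did not pass (adjusted p = 0.0659, 0.116 and 0.0724). The 3 genes are near-identical copies whose probes may share signal. Mmp9, the gelatinase of neutrophil granules, had levels of -2.32, -2.70, -2.95, -2.69 and -2.23 at day 14 and -0.95, -1.0, -1.78 and 0.02 at day 42 (1.65 ± 0.37, adjusted p = 0.0112), and lost its call without day 42 replicate 4 (adjusted p = 0.0552). S100a8, the first gene of the list, an abundant neutrophil protein, did not pass (0.68, adjusted p = 0.166). Of 10 mast cell and basophil genes 2 rose with 24 arrays and 2 with 19. Those of the 24-array fit were Hdc, which makes histamine (1.33 ± 0.33, adjusted p = 0.0253), and Cma1, a mast cell chymase (1.46 ± 0.39, adjusted p = 0.039), with calls lost in 5 and 6 of the 9 fits (up to 0.112 and 0.134). Of 17 type 2 response genes 3 rose with 19 arrays and 2 with 24, Ccl8 above and Areg, an epidermal growth factor receptor ligand, with levels of -2.59, -2.56, -3.06, -2.88 and -3.91 at day 14 and -1.96, -1.48, -1.46 and -1.73 at day 42 (1.34 ± 0.24, adjusted p = 0.00242).

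Ciliated airway genes rose in part. Of 20 tested, 4 rose and none fell with 24 arrays and 11 rose with 19, with medians of 0.72 and 0.70 and slide medians of 0.46, 0.99 and 0.99. Hydin, part of the central pair of motile cilia, had levels of -0.90, -1.26, -0.74, -1.38 and -1.13 at day 14 and -0.25, -0.22, -0.24 and 0.05 at day 42 (0.92 ± 0.18, adjusted p = 0.0048). Cdhr3, a cadherin of the ciliated surface, had levels of 0.79, 0.62, 0.71, 0.30 and 0.48 at day 14 and 1.48, 1.62, 1.63 and 1.53 at day 42 (0.99 ± 0.23, adjusted p = 0.0137). Rsph1, a radial spoke protein, rose (1.18 ± 0.29, adjusted p = 0.0243), as did Ccdc113 (0.76 ± 0.21, adjusted p = 0.0467), which belongs to the base of the cilium. These 2 lost their calls in 4 and 8 of the 9 fits (up to 0.0929 and 0.125), and Hydin did not pass when its probes were averaged (adjusted p = 0.594). Foxj1, the master regulator of motile cilia, differed by 0.91, adjusted p = 0.114 with 24 arrays and by 0.69, adjusted p = 0.0463 with 19. Of 15 club and secretory airway genes none passed with 24 arrays (4 higher and 0 lower at an unadjusted p under 0.05) and 1 rose with 19. Scgb1a1, the club cell secretoglobin, had levels of 8.17, 8.14, 8.09, 8.05 and 7.61 at day 14 and 8.17, 8.26, 8.39 and 9.21 at day 42 (0.49, adjusted p = 0.494).

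Gas-exchange epithelium and endothelium showed few calls. None of 16 alveolar type 1 genes passed in either fit (1 higher and 1 lower at an unadjusted p under 0.05), and Ager, the receptor that marks type 1 cells, had levels of 5.41, 5.33, 5.42, 5.09 and 5.01 at day 14 and 4.85, 5.18, 5.17 and 6.60 at day 42 (0.20, adjusted p = 0.823). Of 20 alveolar type 2 and surfactant genes 1 rose with 24 arrays, the desaturase Scd1 described below, and 4 with 19. Sftpb, surfactant protein B, had levels of 7.30, 7.32, 7.29, 7.24 and 7.11 at day 14 and 7.08, 7.37, 7.41 and 8.36 at day 42 (0.31, adjusted p = 0.687). Of 26 capillary endothelial genes none passed with 24 arrays (0 higher and 3 lower at an unadjusted p under 0.05), and 4 fell with 19. Pecam1 and Cdh5, which encode junction proteins of endothelium, differed by 0.20, adjusted p = 0.728, and by 0.12, adjusted p = 0.846. Day 42 replicate 4 was the highest of the 9 arrays for Ager, Sftpb, Pecam1 and Cdh5. Among stromal lists, smooth muscle and myofibroblast genes (18 tested), pericyte genes (12) and vascular growth signals (20) had no member past the test with 24 arrays (0 higher in each at an unadjusted p under 0.05, and 4, 3 and 2 lower), and with 19 arrays 1 rose and 3 fell, 5 fell, and 3 fell. Acta2, smooth muscle actin, had levels of 4.90, 4.94, 4.28, 4.32 and 6.14 at day 14 and 5.03, 5.20, 4.82 and 6.32 at day 42 (0.42, adjusted p = 0.683). Of 15 lipofibroblast and alveolar fibroblast genes Pparg alone passed with 24 arrays, and Tcf21, a transcription factor of these fibroblasts, fell with 19 (-1.14 ± 0.13, adjusted p = 3.1e-05), with levels of 3.66, 3.76, 3.54, 3.58 and 3.49 at day 14 and 2.37, 2.34, 2.70 and 3.58 at day 42.

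Proliferation genes gave no call with 24 arrays. None of 27 DNA replication genes (0 in either direction at an unadjusted p under 0.05) and none of 30 mitosis genes (0 higher and 2 lower) passed with 24 arrays, and 0 and 2 fell with 19. Mki67, expressed in cycling cells, had levels of 0.79, 0.61, 1.1, 1.31 and 2.70 at day 14 and 1.69, 1.06, 1.19 and -0.53 at day 42 (-0.45, adjusted p = 0.689). The mean level of the mitosis list was 1.63, 0.88 and 0.53 at days 1, 4 and 7, -2.01 to -1.59 on day 14 replicates 1 to 4, -0.21 on day 14 replicate 5, and -2.03 to -1.37 at day 42. For these genes day 14 replicate 5 lay between day 7 and the other day 14 arrays. Oxidative phosphorylation genes had no call either (24 tested, 0 in either direction at an unadjusted p under 0.05, and 0 with 19 arrays).

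Lipid synthesis genes rose in part. Of 19 cholesterol synthesis genes 3 rose and none fell with 24 arrays, the same count in each of the 9 fits, and 12 rose with 19, with medians of 0.91 and 0.71. Sqle, the epoxidase that commits squalene to sterols, had levels of 2.36, 2.14, 1.56, 1.89 and 2.51 at day 14 and 3.06, 3.43, 3.07 and 3.89 at day 42 (1.27 ± 0.27, adjusted p = 0.00955). Msmo1, a later demethylating step, had levels of 2.80, 2.74, 2.15, 2.69 and 2.43 at day 14 and 3.33, 3.71, 3.45 and 3.39 at day 42 (0.91 ± 0.16, adjusted p = 0.00195), and Insig1, the sterol-regulated brake on the pathway, -2.29, -2.38, -2.16, -2.73 and -2.37 at day 14 and -1.38, -1.23, -1.59 and -1.38 at day 42 (0.99 ± 0.22, adjusted p = 0.0108). None of these overlapped between the ages. Hmgcs1, an early step of the pathway, passed with 19 arrays (0.66 ± 0.10, adjusted p = 0.000356). Of 20 fatty acid genes 3 rose with 24 arrays, and 6 rose and 1 fell with 19. Acaca, acetyl-CoA carboxylase, had levels of 3.49, 3.54, 3.29, 3.42 and 3.49 at day 14 and 5.29, 4.25, 3.90 and 4.83 at day 42 (1.12 ± 0.24, adjusted p = 0.00835). Fasn, fatty acid synthase, had levels of 0.11, 0.09, 0.14, -0.03 and -0.16 at day 14 and 1.75, 0.77, 0.52 and 1.78 at day 42 (1.17 ± 0.33, adjusted p = 0.0462), and lost its call in 8 of the 9 fits (up to 0.171). Scd1, which makes monounsaturated fatty acids, had levels of 4.44, 4.26, 4.53, 3.89 and 3.92 at day 14 and 5.83, 5.26, 5.03 and 5.19 at day 42 (1.12 ± 0.22, adjusted p = 0.00382). Mfsd2a, the transporter of lysophosphatidylcholine and its docosahexaenoic acid, came next after Jchain among called rises of genes well above background on all 9 arrays, with levels of -1.26, -1.95, -1.82, -2.57 and -2.17 at day 14 and 1.12, 1.73, 1.18 and 2.22 at day 42, an 11.5-fold difference (3.52 ± 0.47, adjusted p = 8.3e-05), and means of -3.59, -4.30 and -4.37 at days 1, 4 and 7.

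Markers of adipocytes moved with some of these genes. Of 12 adipocyte genes 1 rose, Retn, the adipokine resistin, with levels of -2.12, -3.49, -0.61, -3.14 and -2.54 at day 14 and 3.75, 0.83, -0.33 and -2.19 at day 42 (2.90 ± 0.81, adjusted p = 0.0467), and 4 rose with 19 arrays. The list's mean level was 3.32, 0.36, 0.02 and -1.67 on day 42 replicates 1 to 4, and -0.57, -2.24, -0.15, -2.37 and -1.17 on day 14 replicates 1 to 5, and its median difference within slides was 4.23, 2.41 and -0.61. Adipoq, adiponectin, had levels of -1.37, -3.84, 0.02, -3.66 and -1.09 at day 14 and 4.92, 1.51, 0.58 and -1.68 at day 42 (3.32, adjusted p = 0.245). The day 42 array with the most adipocyte signal, replicate 1, was also the highest for Acaca, Scd1 and Pparg. For Fasn replicate 1 was exceeded only by the low array, replicate 4. It was not the highest for Sqle, Msmo1, Insig1 or Mfsd2a, with or without the low array. Klb, the co-receptor of fibroblast growth factor 21 in fat and liver, was not well above background at day 14 and was at least 3.18-fold higher at day 42, with levels of -6.25, -6.11, -6.32, -7.28 and -6.41 at day 14 and -1.61, -4.72, -4.68 and -5.39 at day 42 and a call lost in 8 of the 9 fits (up to 0.178). Without day 42 replicate 1 the bound was 1.79-fold. Retn lost its call in 7 of the fits (up to 0.186), and its difference was 1.82 without day 42 replicate 1 and 3.80 without replicate 4. Without replicate 1, Acaca and Scd1 passed (adjusted p = 0.0435 and 0.0228). Acaca did not pass when all probes of a gene were averaged (adjusted p = 0.0622) or in the fit of the 9 arrays alone (0.0777). The part of adipocytes in these results was not tested.

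Circadian clock genes differed in a few members with changes of more than 2-fold. Of 20 tested, 4 fell and 1 rose with 24 arrays, and 7 fell and 1 rose with 19. All 4 falls passed in each of the 9 fits that leave out 1 array, but in the fit of the 9 arrays alone Per2 and Per3 did not (adjusted p = 0.0547 and 0.0529). Per2 and Per3 encode period proteins and Cry1 a cryptochrome, which together repress the clock's activators. Per2 had levels of 0.71, 0.79, 1.13, 1.07 and -0.64 at day 14 and -1.87, -1.39, -0.48 and -1.1 at day 42 (-1.82 ± 0.29, adjusted p = 0.000666), with day 14 replicate 5 in the day 42 range. Per3 had levels of -2.24, -2.22, -2.17, -2.29 and -3.21 at day 14 and -4.49, -3.40, -3.41 and -4.22 at day 42 (-1.45 ± 0.24, adjusted p = 0.000976), and Cry1 of -3.08, -2.87, -2.65, -3.05 and -3.12 at day 14 and -4.40, -4.19, -4.26 and -4.16 at day 42 (-1.30 ± 0.16, adjusted p = 2.68e-05), without overlap in either. Hlf, an output factor of the clock, had levels of -1.06, -0.96, -0.76, -1.11 and -1.33 at day 14 and -2.78, -2.33, -2.02 and -2.09 at day 42 (-1.26 ± 0.17, adjusted p = 9.17e-05). Arntl, the activator BMAL1, had levels of -1.34, -1.44, -1.22, -1.55 and 0.33 at day 14 and 0.47, 0.21, -0.35 and -0.22 at day 42 (1.07 ± 0.29, adjusted p = 0.042), with day 14 replicate 5 above 3 of the 4 day 42 arrays, and lost its call in 7 of the 9 fits (up to 0.145). Its partner Clock did not pass (-0.51, adjusted p = 0.751). The list's median difference was -0.22, and 0.02 with arrays centred on the median. The labels give no time of day of collection.
The E-box CACGTG, a palindrome to which BMAL1 binds, was found in 5 of 17 clock members with a RefSeq promoter (29.4%), against 10.6% of tested genes with a promoter and 7.2% of all promoters, and among the 4 called members with a promoter only Cry1 held it. Its promoter is shown 5′ to 3′ on the gene's strand with the E-box in capitals.
Cry1 (chr10:85185005-85185304, minus strand): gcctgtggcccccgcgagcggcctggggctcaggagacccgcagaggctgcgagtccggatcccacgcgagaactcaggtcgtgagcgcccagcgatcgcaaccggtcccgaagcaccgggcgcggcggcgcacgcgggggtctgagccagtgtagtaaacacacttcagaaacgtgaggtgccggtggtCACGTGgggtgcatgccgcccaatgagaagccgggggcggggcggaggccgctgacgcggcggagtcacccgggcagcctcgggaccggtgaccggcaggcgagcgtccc

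**Figure D5:**
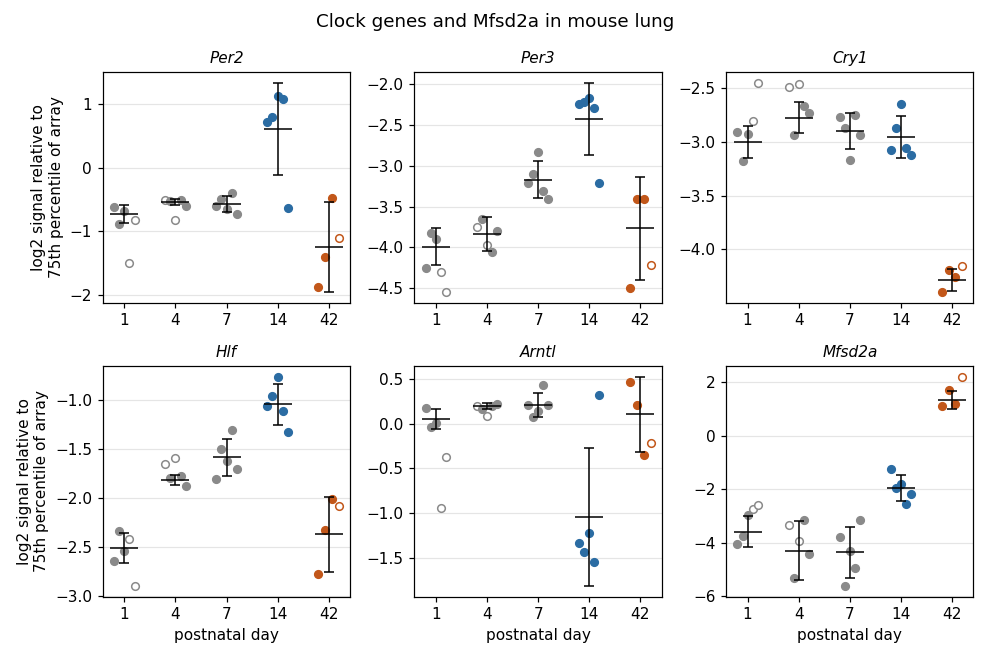
Levels of 5 clock genes and Mfsd2a (y axis, log2 signal relative to the array's 75th percentile) on every array by postnatal day (x axis), with open circles for low arrays and bars for the mean and SD of the others. Per3, Cry1 and Hlf are lower and Mfsd2a is higher on all 4 day 42 arrays than on any day 14 array, and Per2 and Arntl overlap through day 14 replicate 5.

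Hormone, detoxification and stress lists gave 1 or 2 calls each. Of 16 glucocorticoid response genes 2 fell with 24 arrays and 2 with 19. Zbtb16, a steroid-induced transcription factor, had levels of 1.41, 2.77, 1.35, 2.70 and 0.40 at day 14 and -0.37, -0.32, 1.28 and 0.52 at day 42 (-1.45 ± 0.37, adjusted p = 0.0294). Hsd11b2, which inactivates glucocorticoid, was not well above background at day 42 and was at least 1.69-fold lower (adjusted p = 0.0391). The 2 lost their calls in 4 and 5 of the 9 fits (up to 0.117 and 0.156). Of 9 sex steroid response genes 1 rose with 24 arrays, and 2 rose and 1 fell with 19, beside the uneven spread of Xist and Ddx3y signal over arrays given above. Of 18 xenobiotic oxidases 3 rose with 19 arrays and 1 with 24, Aox1, an aldehyde oxidase, with levels of 1.12, 1.20, 0.82, 1.22 and -0.01 at day 14 and 2.01, 1.65, 1.89 and 1.95 at day 42 (1.01 ± 0.20, adjusted p = 0.00519). Of 28 glutathione and antioxidant genes 5 rose and 1 fell with 19 arrays, and 1 fell with 24, Gclm, the modifier subunit of glutathione synthesis (-0.58 ± 0.16, adjusted p = 0.039), with a call lost in 7 of the 9 fits (up to 0.113). Its partner Gclc, the catalytic subunit, rose with 19 arrays (0.74 ± 0.12, adjusted p = 0.000813) and did not pass with 24 (0.60, adjusted p = 0.0934). Of 16 immediate early and heat shock genes 3 rose with 19 arrays and 2 with 24, Egr2 (0.95 ± 0.24, adjusted p = 0.0294) and Atf3 (1.37 ± 0.38, adjusted p = 0.0467), transcription factors induced within minutes of a stimulus, with calls lost in 5 and 7 of the 9 fits (up to 0.123 and 0.169).

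Several of the largest changes belong to no list. Avpr1a, the vasopressin V1a receptor, rose, with levels of -4.55, -5.09, -4.87, -5.67 and -5.03 at day 14 and -2.67, -2.50, -3.06 and -2.99 at day 42 (2.23 ± 0.22, adjusted p = 2.19e-06). Lrg1, a secreted glycoprotein of endothelium and the acute phase, had levels of 3.04, 2.58, 2.47, 2.12 and 2.58 at day 14 and 4.69, 5.01, 4.13 and 5.77 at day 42 (2.34 ± 0.45, adjusted p = 0.00409). Ppp2r2c, a regulatory subunit of protein phosphatase 2A, rose (2.64 ± 0.62, adjusted p = 0.0161) and lost its call without day 42 replicate 4 (adjusted p = 0.0692). Proz, the coagulation cofactor protein Z, was well above background on 1 day 14 array and 3 day 42 arrays, and had levels of -5.61, -6.69, -5.03, -6.13 and -5.85 at day 14 and -4.44, -3.55, -3.66 and -4.83 at day 42 (adjusted p = 0.0475), with a call lost in 7 of the 9 fits (up to 0.144). Among falls, Zdhhc22, a palmitoyltransferase, had levels of 5.98, 6.18, 6.21, 6.29 and 5.52 at day 14 and 3.45, 3.64, 2.64 and 3.92 at day 42 (-2.62 ± 0.30, adjusted p = 9.38e-06). Slc6a20a, an imino acid transporter, had levels of 3.24, 3.18, 3.47, 3.29 and 2.15 at day 14 and -0.08, 0.41, -0.37 and 1.13 at day 42 (-2.80 ± 0.43, adjusted p = 0.000413), and Unc93a2 of 2.59, 2.55, 3.56, 2.65 and 1.72 at day 14 and -0.26, -0.18, -1.18 and 0.54 at day 42 (-2.88 ± 0.42, adjusted p = 0.000262). Unc93a2 did not pass when all probes of a gene were averaged (adjusted p = 0.0699). Gja3, a connexin, fell (-2.64 ± 0.32, adjusted p = 3.04e-05), and so did Otop1, a proton channel (-2.54 ± 0.40, adjusted p = 0.0005), whose other probe differed in sign and whose mean over probes did not pass (adjusted p = 0.791). In Zdhhc22, Slc6a20a, Unc93a2, Gja3 and Otop1 the lowest day 14 level was on replicate 5. The same held for Slc4a1, Trim10, Alas2 and Hbb-b2, and for genes of other kinds, among them Gzmb, B2m, Rsad2 and Per3. Mettl21e, a methyltransferase, was well above background on all day 14 arrays and on none at day 42, and was at least 6.54-fold lower (adjusted p = 0.000168). Camk1g, a calcium-dependent kinase, had levels of -0.44, 0.00, -0.07, 0.08 and 2.55 at day 14 and -1.84, -2.23, -2.55 and -1.99 at day 42 (-2.58 ± 0.48, adjusted p = 0.00261), and Pgbd5, a transposase-derived protein, of -0.10, -0.15, -0.54, -0.28 and 1.80 at day 14 and -2.32, -2.62, -3.13 and -1.54 at day 42 (-2.55 ± 0.41, adjusted p = 0.000584). For Camk1g and Pgbd5 the highest day 14 level was on replicate 5, near their day 7 means of 2.93 and 2.24.

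Markers of neighbouring tissue were low in calls. None of 19 cardiac muscle genes, 10 skeletal muscle genes and 9 oesophagus, thyroid and liver genes passed in either fit (0 of each at an unadjusted p under 0.05), nor did 10 cartilage genes or 12 mesothelial genes with 24 arrays (3 lower and 3 higher at an unadjusted p under 0.05), while 1 of each fell with 19. The mean level of the cardiac list ranged from -0.44 to 1.90 at day 14, highest on replicate 3, and from -0.05 to 1.17 at day 42. The mesothelial list was also highest on day 14 replicate 3 (2.44, against 0.75 to 1.39 on the other day 14 arrays). Of 14 basal and neuroendocrine airway genes none passed with 24 arrays (1 higher and 0 lower at an unadjusted p under 0.05), and 2 fell with 19. The thymus and lymph node stroma list had 1 rise and 1 fall among 8 tested, Ccl19 and Rag1, both given above.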

How the data were processed

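Total RNA of whole mouse lung was hybridised with Cy3 label to 24 Agilent arrays on 3 slides (5 arrays at each of days 1, 4, 7 and 14 and 4 at day 42). The intensity values used are the processed signals that the authors deposited as scanner output, after its background subtraction; their headers name Feature Extraction 10.7.3.1, whereas version 10.7.1.1 stands in the submitters' processing notes. The authors' deposited value table holds log2 values, by comparison with the scans, with column medians of 5.66 to 6.26. How it was normalized is not given in the sources used here, and it served as an alternative only.

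Each array's log2 signal was taken relative to its 75th percentile over spots that are not controls. Spots of a probe were averaged. Of 55543 probes, 25998 had 1 gene symbol through RefSeq accessions (19722 genes), and 29545 had none. A gene is its probe with the highest mean over all arrays, and was tested where well above background on at least 4 arrays (15895 genes). No spot was saturated. Arrays carry no read depth, and their number limits the precision.

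limma 3.58.1 in R 4.3.3 was fitted to all 24 arrays with 1 mean per age, and the contrast of day 42 against day 14 was adjusted over all genes by Benjamini-Hochberg. A second fit left out 5 arrays with a low 75th percentile. The fit was tested on simulated data. Alternatives covered background correction, normalization, filter, probe rule, samples, slide, replicate number, array weights, Xist level and each array left out. Further choices, slide as a block and each array left out, both without the low arrays, were added after seeing the data.

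Genes named are the 15 largest rises and falls that passed both fits and did not overlap once the low arrays were left out, the 5 largest each way measured at 1 age, up to 4 called members each way of each list, its first 2 members, and Xist and Ddx3y. Others are said to be chosen after their values were seen. Members and lists were chosen with earlier results of these data known. Some members of the lists are not reported here by name, and their lists' counts include them.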

Additional observations from a re-analysis of the deposited data

Results flagged for a closer look

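Within an age, single arrays stood apart from the others for 56 of 302 sets of values tested. The limit used is passed by about 1 in 20 independent sets by chance. These sets share the same arrays and their genes were partly chosen on these levels, so that rate does not apply to them. The measure was the gap of the highest or lowest array to its nearest neighbour, as a share of the range of the age. Day 14 replicate 5 stood apart in 31 sets and day 42 replicate 4 in 21.

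On day 14 replicate 5 the level was lower than on the other day 14 arrays for Alas2 (5.33), Hbb-b2 (7.39), Trim10 (-1.66), Col4a5 (2.62), Chrdl1 (-4.76) and Gzmb (-4.04). The same array was lower for Klra8 (-4.22), Eomes (-4.36), Fcer2a (-2.89), B2m (4.10) and Rsad2 (1.37). It was lower as well for Pparg (0.12), Scgb1a1 (7.61), Per2 (-0.64), Per3 (-3.21), Slc6a20a (2.15) and Gja3 (-2.40). Day 14 replicate 5 was higher than its group for Car2 (4.09), Fbn1 (3.30), Col1a2 (7.51), Rspo2 (-0.79), Crabp1 (0.22) and Mest (3.78). That array was also higher for Nrep (4.68), Igf1 (1.88), Ccl8 (-2.29), Stfa1 (3.1), Stfa3 (0.81) and Arntl (0.33). Further high values there were those of Camk1g (2.55) and Pgbd5 (1.80). Day 42 replicate 4, the low array, was higher than the other day 42 arrays for Hba-a2 (9.25), Fbn1 (2.63), Col1a1 (6.78), Col4a1 (5.12), Col4a2 (5.52) and Grb10 (-3.1). Also higher on it were Igfbp3 (1.80), Cd3e (2.19), Nlrc5 (2.33), B2m (6.40), H2-K1 (8.57) and H2-Aa (4.45). The remaining high values on it were those of Hydin (0.05), Pecam1 (3.21) and Cdh5 (5.93). The low array was lower than its group for Xist (-7.04), Lox (-2.44), Ccdc113 (1.41), Clock (-2.36) and Ptprc (-1.19). Single values on other arrays were those of Cxcl10 on day 14 replicate 3 (-0.78), Pparg on day 42 replicate 1 (1.64) and Klb on day 14 replicate 4 (-7.28). The percentage of spots well above background was high on day 14 replicate 3 (79.7%) and low on day 42 replicate 4 (54.2%).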

How the results depend on the processing

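Against 587 calls with all 24 arrays, quantile normalization gave 973 calls and each probe tested on its own gave 1003. There were 1525 calls with the authors' value table, 206 with the 9 arrays of both ages alone and 4957 with array weights. Without the low arrays there were 2154 calls, 1409 from days 14 and 42 alone, 2261 without day 14 replicate 5 too, 1728 with Xist as a covariate and 1856 with slide as a block, the last chosen after seeing the data. Leaving out 1 array gave 359 (without day 42 replicate 2) to 511 calls, and 1166 to 2261 when the low arrays were out as well. No call took the opposite direction in any of these fits. The replicate numbers did not pair the samples, and 507 calls were made with the replicate block.

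List members past the test numbered 180 with quantile normalization, 224 with the authors' table, 36 with the 9 arrays alone and 484 with array weights. Without the low arrays they numbered 270, and 188 from 2 ages, 289 without day 14 replicate 5, 236 with Xist and 245 with slide. Leaving out 1 array gave 66 to 93, and 167 to 292 without the low arrays. Of the 115 called genes named here, 46 were called with the 9 arrays alone and 83 to 99 with 1 array left out. Of the 34 settings, 37 genes were called in each one that tested them, and all 115 kept their direction where tested. The setting limited to genes well above background on all arrays tested 118 of the 149 genes named here. Kel and Rhd are among the 37 but were not tested in that setting. Cdh5, which was not called, changed sign with array weights (-0.26, adjusted p = 0.0299). The causes were not tested.

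The median SD within day 42 was 0.57, and 0.12 without replicate 4, against 0.22 within day 14. The 24-array fit takes its spread from the arrays of all ages. Leaving out day 42 replicate 4 alone lowered the calls from 587 to 438, whereas leaving out all low arrays raised them to 2154. The part of each low array in these counts was not tested. Medians of lists on slide 3 rest on day 42 replicate 4.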

Other observations

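In the limma fit of each probe on its own, 1003 of all 36467 probes tested had an adjusted p under 0.05, 452 higher and 551 lower at day 42. Of the 15653 among them that have no gene symbol here, 385 did, 116 higher and 269 lower. They belong to none of the lists above.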
